A study of Mus musculus with 4 samples.

Results

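The genes described here are the receptor chains for the myeloid growth factors M-CSF, GM-CSF, IL-3, IL-5 and G-CSF, together with Csf1, which encodes M-CSF itself. They were found by symbol in the table of counts, and all 8 (Csf1, Csf1r, Csf2ra, Csf2rb, Csf2rb2, Csf3r, Il3ra and Il5ra) were among its 35798 named genes. The set was selected on its measured values, the lower counts of these genes in TNFR2 KO than in wild-type libraries, so that difference is given as a description and was not tested for them. The libraries were made from Ly49H+ natural killer (NK) cells of spleen, taken on day 3.5 of infection with murine cytomegalovirus (MCMV). Wild-type C57BL/6 donor cells carrying CD45.1 and TNFR2 KO donor cells carrying CD45.2, a knockout of TNF receptor 2, shared the same NSG hosts and met the virus there. NSG mice lack mature T, B and NK cells of their own but keep myeloid cells, and through their NOD background these carry CD45.1, the allele by which the wild-type cells were sorted. How many host cells either gate took in was not tested. Each genotype had 2 libraries, and the labels give each pair of same-numbered libraries as coming from 1 pooled spleen sample of 3 NSG mice. The CD45 allele and the sort gate differ wherever the genotype does, so the 3 cannot be told apart. The study describes 1 experiment in duplicate, and whether the 2 pairs are separate groups of mice is stated neither there nor in the labels, so duplicates may differ by technical spread alone.

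M-CSF acts through Csf1r, a receptor tyrosine kinase that maintains monocytes and macrophages. GM-CSF, IL-3 and IL-5 each bind an alpha chain of their own (Csf2ra, Il3ra and Il5ra), which pairs with a shared beta chain, Csf2rb, to activate JAK2 and STAT5, while the mouse has a further beta chain, Csf2rb2, that serves IL-3. G-CSF binds Csf3r, which pairs with itself and drives the growth and release of neutrophils. Resting NK cells rely instead on lymphoid receptors such as those for IL-2, IL-15, IL-12 and IL-18.

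The 4 libraries held 32713256 to 39543650 counts. Tnfrsf1b, which encodes TNFR2, measured 265 and 268 CPM (the count relative to the TMM-scaled size of its library) in wild-type cells against 55.1 and 58.6 CPM in TNFR2 KO cells. The log2-fold change, here always TNFR2 KO relative to wild-type, was -2.23 with a standard error of 0.035 (edgeR's quasi-likelihood test, Benjamini-Hochberg adjusted p = 1.35e-13, n = 2 libraries per genotype). Transcripts of the targeted gene thus remained at 21.3% of the wild-type level, and counts per gene do not show from which part of the gene they came. The 14 NK cell markers were detected in every library and summed to 16363 and 16287 CPM in wild-type cells against 29946 and 29705 CPM in TNFR2 KO cells. Klra8, which encodes Ly49H and was added to the named genes after its values were seen, stood at 313 and 316 CPM in wild-type cells against 762 and 725 CPM in TNFR2 KO cells.

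The summed level of the 8 genes was 896 and 905 CPM in wild-type cells against 155 and 152 CPM in TNFR2 KO cells, or 17.0% of the wild-type level. In all 8 genes both wild-type libraries lay above both TNFR2 KO libraries, an ordering that 37.7% of the 13822 genes tested also had. Of the 8, 7 passed the filter on low counts, and 6 of these lay past the thresholds used for all genes (an adjusted p under 0.05 with a log2-fold change beyond -1 or 1), each lower in TNFR2 KO. Of all genes tested, 11.8% were past both thresholds in that direction and 1.56% in the other. Because this contrast chose the set, those counts carry no evidence of their own. In bulk RNA, fewer cells of a type and less RNA per cell cannot be told apart.

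**Figure D1:**
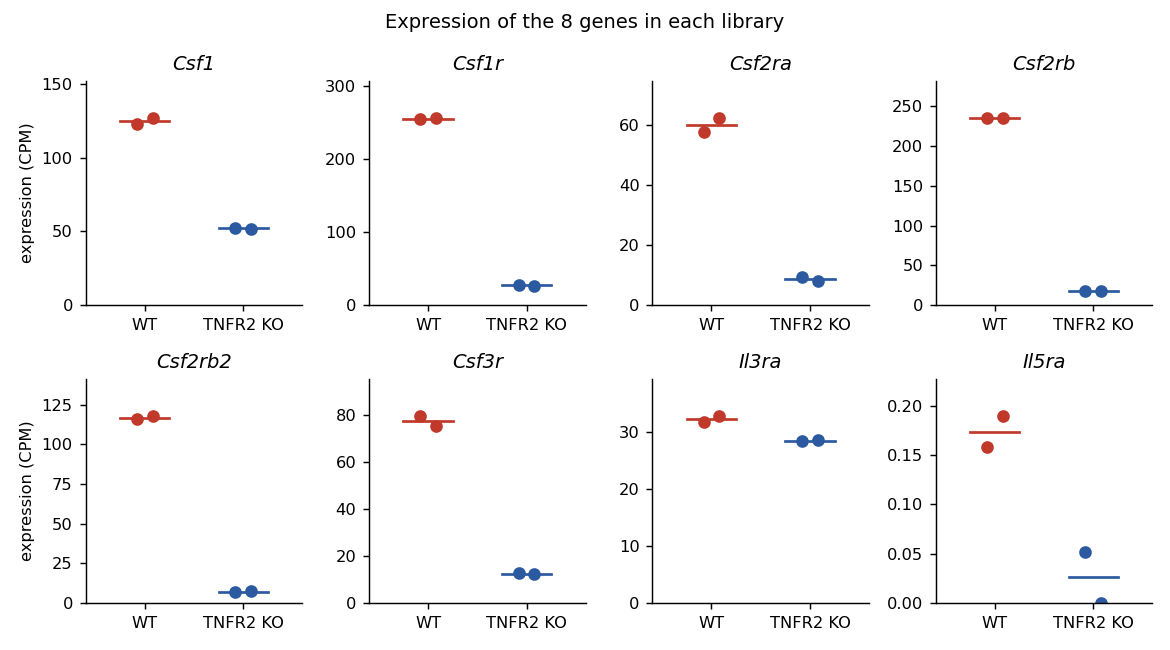
Expression of each of the 8 genes in CPM (vertical axis, from 0, with its own scale for each gene) in the 2 wild-type (red) and 2 TNFR2 KO (blue) libraries, where points are libraries and bars are group means. In every panel both wild-type points sit above both TNFR2 KO points, and relative to the wild-type level the gap is smallest for Il3ra, at 31.6 and 32.7 against 28.3 and 28.5 CPM.

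Csf1, the ligand of the set (chr3:107741048-107760469, minus strand, on GRCm38 as are all positions here), measured 123 and 127 CPM in wild-type cells against 52.4 and 52.0 CPM in TNFR2 KO cells. The TNFR2 KO mean was 41.8% of the wild-type mean, a log2-fold change of -1.26, and the genotypes did not overlap. Within the pairs of same-numbered libraries the log2 ratio was -1.23 and -1.29. Csf1 thus had the second smallest difference among the 7 genes past the filter.

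The receptor for M-CSF, Csf1r (chr18:61100598-61132149, plus strand), differed more than its ligand. Its level was 254 and 255 CPM in wild-type cells against 27.4 and 26.6 CPM in TNFR2 KO cells. The log2-fold change was -3.24, with ratios of -3.21 and -3.26 in the 2 pairs of libraries, so that 10.6% of the wild-type level was seen in TNFR2 KO cells. The duplicates were close in both genotypes, with SDs of 0.910 CPM for the wild-type and 0.510 CPM for the TNFR2 KO libraries (n = 2). Of the 31-base stretches of Csf1r transcripts, 14.6% also occur in Hmgxb3, a gene that overlaps it on the opposite strand. Hmgxb3 itself measured 40.2 and 38.5 CPM in wild-type cells against 37.3 and 37.9 CPM in TNFR2 KO cells, with a log2-fold change of -0.07 (edgeR's quasi-likelihood test, Benjamini-Hochberg adjusted p = 0.301).

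Csf2ra, the alpha chain for GM-CSF (chr19:61223957-61228429, minus strand), measured 57.8 and 62.2 CPM in wild-type cells against 9.33 and 8.02 CPM in TNFR2 KO cells. Its log2-fold change was -2.78, and 14.5% of the wild-type level was seen in TNFR2 KO cells. Of the 7 genes it varied most between the pairs of libraries, with log2 ratios of -2.63 and -2.96, and leaving out each library in turn gave -2.89 to -2.68.

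Il3ra, the alpha chain for IL-3 (chr14:14346275-14356011, plus strand), stood apart from the other receptor chains. It measured 31.6 and 32.7 CPM in wild-type cells against 28.3 and 28.5 CPM in TNFR2 KO cells, so that the TNFR2 KO mean was 88.4% of the wild-type mean. The log2-fold change was -0.18, with ratios of -0.16 and -0.20 in the 2 pairs of libraries. Both wild-type libraries still lay above both TNFR2 KO libraries, by a gap larger than that between duplicates.

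Il5ra, the alpha chain for IL-5 found on eosinophils (chr6:106710357-106749037, minus strand), was close to the limit of detection. It had 6 and 7 counts in the wild-type libraries and 2 and 0 counts in the TNFR2 KO libraries, and it was the gene that did not pass the filter on low counts. A count of 0 allows up to 3 counts at this depth. The ratio of 13 to 2 counts, scaled for library size, was 6.15 with an exact 95% interval of 1.39 to 56.1, which covers counting error only. The set was chosen on this difference, so the interval is no test of it, and it leaves out other spread between duplicates.

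The largest differences of the set were in the 2 beta chains. Csf2rb, the chain shared by the GM-CSF, IL-3 and IL-5 receptors, measured 235 CPM in both wild-type libraries and 17.6 CPM in both TNFR2 KO libraries, a 13.3-fold difference and a log2-fold change of -3.74. Csf2rb2, the IL-3 beta chain, measured 116 and 118 CPM in wild-type cells against 6.93 and 7.21 CPM in TNFR2 KO cells, a 16.5-fold difference and a log2-fold change of -4.05. In neither gene did the genotypes approach each other, and leaving out each library in turn gave log2-fold changes of -3.73 to -3.72 for Csf2rb and of -4.07 to -4.01 for Csf2rb2.

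Csf2rb (chr15:78325752-78353847, plus strand) and Csf2rb2 (chr15:78282507-78305721, minus strand) are neighbours in opposite orientation, and their sequences are nearly alike. Their longest coding sequences have 2688 and 2634 bases, and 2504 bases are identical in an alignment, or 95.4% of the aligned positions. The longest stretch without a difference has 242 bases, at coding positions 2083 to 2324 of both genes, and is shown because a pair of reads that falls within it does not tell the genes apart.
Csf2rb and Csf2rb2, shared coding stretch: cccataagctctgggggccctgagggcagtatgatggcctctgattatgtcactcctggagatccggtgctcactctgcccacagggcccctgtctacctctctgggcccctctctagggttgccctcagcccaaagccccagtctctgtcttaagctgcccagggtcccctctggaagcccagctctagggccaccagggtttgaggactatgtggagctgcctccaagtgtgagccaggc
By 31-base stretches, 18.8% of the Csf2rb transcript sequence occurs in Csf2rb2 and 28.6% of the Csf2rb2 sequence occurs in Csf2rb. The split of reads between both genes is therefore an estimate of the program that counted them. Per kilobase of exon, the ratio of Csf2rb to Csf2rb2 was 1.32 and 1.30 in wild-type and 1.65 and 1.59 in TNFR2 KO libraries.

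Csf3r, the receptor for G-CSF (chr4:126024550-126044440, plus strand), measured 79.6 and 75.5 CPM in wild-type cells against 12.7 and 12.3 CPM in TNFR2 KO cells. The TNFR2 KO mean was 16.1% of the wild-type mean, with a log2-fold change of -2.63 and log2 ratios of -2.65 and -2.61 in the 2 pairs. Among all genes tested, 4.75% had a log2-fold change below that of Csf3r, which was the least changed of the 5 receptor chains past both thresholds. Another annotated gene, AC105061.2, holds 19.9% of the 31-base stretches of Csf3r.

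Promoter sequences (RefSeq, GRCm38.p6, 250 bases before to 50 bases after the start of the gene) were used for 6 of the 8 genes. They were searched on both strands for GAGGAA, the core bound by PU.1, the master regulator of myeloid cells that Spi1 encodes. The C/EBP motif TTGCNNAA was searched for in the same way. On the opposite strand the PU.1 core reads TTCCTC and the C/EBP motif TTNNGCAA. The PU.1 core was present in 4 of the 6 windows, in Csf2ra, Csf2rb2, Csf3r and Il5ra, and in 28.3% of all 32851 promoter windows. The C/EBP motif was present in 1 of the 6, that of Il3ra, and in 10.8% of all windows. The promoters of Csf1r and Csf2rb were not among the 6, so neither motif was looked for in them. The windows of 3 receptor chains with large differences are shown with that of Il3ra, which differed least, and capitals mark the PU.1 core. They are at chr19:61228369-61228668 (minus strand), chr15:78305672-78305971 (minus), chr4:126024409-126024708 (plus) and chr14:14346245-14346544 (plus).
Csf2ra: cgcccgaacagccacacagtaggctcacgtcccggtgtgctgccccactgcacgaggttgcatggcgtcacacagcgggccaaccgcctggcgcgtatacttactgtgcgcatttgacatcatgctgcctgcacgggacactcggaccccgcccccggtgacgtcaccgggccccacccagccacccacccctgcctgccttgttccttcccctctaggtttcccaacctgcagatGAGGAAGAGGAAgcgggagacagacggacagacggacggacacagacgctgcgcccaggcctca
Csf2rb2: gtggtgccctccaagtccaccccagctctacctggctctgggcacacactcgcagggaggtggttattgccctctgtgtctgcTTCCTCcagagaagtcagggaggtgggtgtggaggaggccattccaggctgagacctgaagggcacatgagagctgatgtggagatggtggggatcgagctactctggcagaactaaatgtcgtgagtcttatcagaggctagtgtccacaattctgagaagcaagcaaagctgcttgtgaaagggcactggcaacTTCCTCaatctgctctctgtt
Csf3r: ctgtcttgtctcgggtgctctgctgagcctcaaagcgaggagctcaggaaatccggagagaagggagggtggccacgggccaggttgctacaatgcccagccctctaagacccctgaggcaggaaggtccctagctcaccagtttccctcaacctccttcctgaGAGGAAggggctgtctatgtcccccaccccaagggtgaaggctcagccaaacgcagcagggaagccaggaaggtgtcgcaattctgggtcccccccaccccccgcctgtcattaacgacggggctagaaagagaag
Il3ra: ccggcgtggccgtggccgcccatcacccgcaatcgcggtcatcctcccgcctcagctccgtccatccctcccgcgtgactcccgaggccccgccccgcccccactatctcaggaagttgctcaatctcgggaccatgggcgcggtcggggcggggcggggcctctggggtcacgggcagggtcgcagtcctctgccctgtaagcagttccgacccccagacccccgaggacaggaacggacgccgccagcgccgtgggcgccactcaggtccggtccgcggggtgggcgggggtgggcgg
Csf2ra held 2 copies of the core side by side and Csf2rb2 held 2 copies apart, whereas the Il3ra window held none. The window of Csf1, which was past both thresholds, also held none, and Il5ra, with 1 copy, did not pass the filter on low counts. Whether the core goes with the size of a difference was not tested. These matches are letters in a window, and binding was not measured.

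Levels of different genes were compared only per kilobase of exon (CPM per kb). In wild-type cells Csf1r was highest at 44.0 and 44.2 CPM per kb, followed by Csf2rb at 32.2 in both libraries, Csf2rb2 at 24.5 and 24.9, and Csf1 at 23.2 and 24.0. Csf3r at 22.1 and 20.9 and Csf2ra at 20.1 and 21.7 overlapped and could not be ordered, and Il3ra followed at 10.7 and 11.0. In TNFR2 KO cells the order changed, because the receptor chains differed by unequal amounts.

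Csf1 at 9.91 and 9.84 and Il3ra at 9.55 and 9.61 CPM per kb headed the order in TNFR2 KO. Csf1r followed at 4.74 and 4.61, Csf3r at 3.52 and 3.41, Csf2ra at 3.25 and 2.79, Csf2rb at 2.41 and 2.42, and Csf2rb2 at 1.46 and 1.52. Neighbours in this order did not overlap between libraries, although Csf1 and Il3ra lay close together. With the longest coding transcript as the length, an alternative chosen after seeing the data, the order moved in both genotypes. In wild-type cells Csf2ra went from 6th to 3rd place, Csf2rb2 from 3rd to 5th and Csf3r from 5th to 6th, while Csf1r and Csf2rb stayed at the head and Il3ra and Il5ra at the end. In TNFR2 KO cells Csf2ra (4.69 CPM per kb) went ahead of Csf3r (3.59), which was then level with Csf2rb, and the other places stayed.

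**Figure D2:**
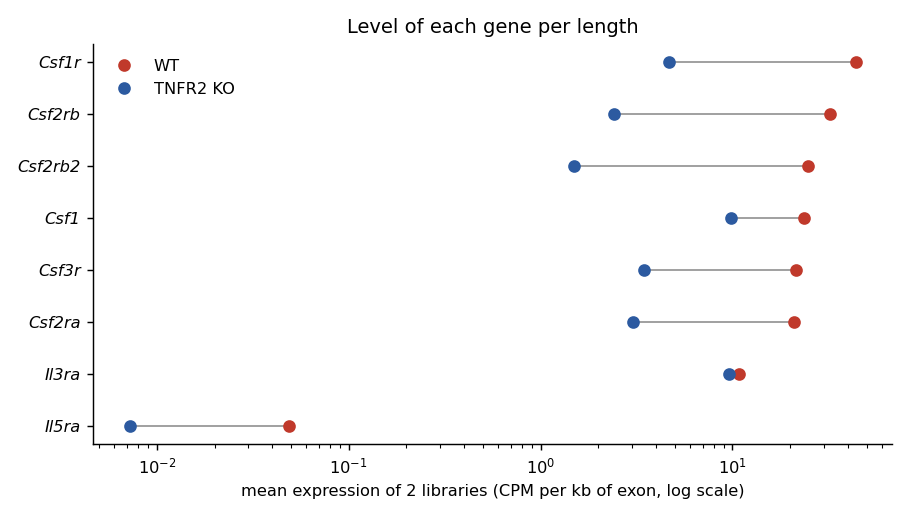
Mean expression of each gene in CPM per kb of exon (horizontal axis, log scale) in wild-type (red) and TNFR2 KO (blue), each the mean of 2 libraries, joined by a line for each gene. The lines of the receptor chains are long, from 44.1 to 4.68 for Csf1r and from 24.7 to 1.49 for Csf2rb2, whereas the points of Il3ra nearly meet at 10.8 and 9.58.

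The ratios between transcripts of receptor subunits differed accordingly. These are ratios in bulk RNA, and whether both transcripts came from the same cells was not tested. The ratio of Il3ra to Csf2rb per kilobase was 0.330 and 0.342 in wild-type and 3.95 and 3.97 in TNFR2 KO libraries. The ratio of Il3ra to the IL-3 chain Csf2rb2 was 0.436 and 0.443 in wild-type and 6.53 and 6.32 in TNFR2 KO. For GM-CSF, the ratio of Csf2ra to Csf2rb was 0.625 and 0.672 in wild-type and 1.35 and 1.15 in TNFR2 KO.
In wild-type libraries Csf2rb transcripts therefore exceeded those of each alpha chain, and in TNFR2 KO libraries the order was the other way for Il3ra and Csf2ra, with either measure of length.

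The other ligands of these receptors were low or not detected. Csf2, which encodes GM-CSF, measured 3.14 and 3.42 CPM in wild-type cells against 2.40 and 2.37 CPM in TNFR2 KO cells, with a log2-fold change of -0.46 (edgeR's quasi-likelihood test, Benjamini-Hochberg adjusted p = 0.0617). Il5 was at most 0.975 CPM in any library, Il3 at most 0.184 CPM and Il34, another ligand of Csf1r, at most 0.108 CPM. Csf3, which encodes G-CSF, had 0 counts in all 4 libraries, which allows up to 3 counts in each. Of the 5 ligands, 2 were tested and neither was past both thresholds with edgeR or DESeq2, and 1 had an unadjusted edgeR p under 0.05.

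The genes through which the receptors signal differed in both directions. Of 26 tested, 3 fell past both thresholds, beside 11.8% of all genes, a like share. At an adjusted p under 0.05 alone, 11 were lower and 12 higher, beside 26.2% and 24.2% of all genes, and the median was 0.03 on the log2 scale beside -0.003 for all genes tested. Scaling on 15 NK cell genes in place of all genes moved the median of all genes to -0.74, and 11 of those 12 turned negative. With scaling on all genes, those 15 were each higher in TNFR2 KO at an adjusted p under 0.05. Such turns to negative values therefore follow from the scale. Btk, which acts in B cell and myeloid receptor signalling, measured 24.0 and 21.2 CPM in wild-type cells against 3.49 and 3.00 CPM in TNFR2 KO cells, with a log2-fold change of -2.79 ± 0.116 (SE; edgeR's quasi-likelihood test, Benjamini-Hochberg adjusted p = 1.02e-09). Lyn, a Src family kinase, changed by -1.02, just past the threshold. Jak1, a kinase shared by many cytokine receptors, stood at 808 and 796 CPM in wild-type cells against 1045 and 1071 CPM in TNFR2 KO cells, a log2-fold change of 0.40 that became -0.34 with scaling on NK cell genes. Ywhaz, also abundant, had a log2-fold change of 0.08 (-0.67 on that scale).

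Genes that STAT5 is known to induce showed small differences. Of 11 tested, none was past both thresholds with edgeR or DESeq2, although 8 had an unadjusted edgeR p under 0.05. At an adjusted p under 0.05 alone, 4 were lower and 3 higher, beside 26.2% and 24.2% of all genes, and the 3 were reduced to 1 with scaling on NK cell genes. The feedback inhibitors Cish and Socs1 had log2-fold changes of -0.49 and -0.47, and the kinase Pim2, the largest difference of the list, had 0.90. These 3 were named after their values were seen. The abundant survival and cell cycle genes Pim1, Mcl1 and Ccnd2 had log2-fold changes of 0.15, -0.03 and 0.15, of which Pim1 and Ccnd2 turned negative with scaling on NK cell genes, to -0.59 and -0.60.

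Transcription factors of the myeloid lineages were mostly lower in TNFR2 KO cells. Of 12 tested, 8 fell past both thresholds, beside 11.8% of all genes, and their median was -1.75 on the log2 scale. This list was written with earlier results of these libraries known and is not independent evidence of direction. Gata2, a regulator of mast cells, basophils and stem cells, measured 69.1 and 68.4 CPM in wild-type cells against 3.08 and 2.37 CPM in TNFR2 KO cells, log2-fold change -4.64 ± 0.084 (SE; edgeR's quasi-likelihood test, Benjamini-Hochberg adjusted p = 4.07e-13). Cebpa, the factor of granulocyte and monocyte precursors, changed by -4.11 and Spi1, which encodes PU.1, by -2.97. Factors that lymphoid cells also use differed otherwise, with log2-fold changes of 0.60 for Irf8, 0.26 for Gfi1 and 0.03 for Runx1. Irf8 and Gfi1 were higher at an adjusted p under 0.05, and both turned negative with scaling on NK cell genes, to -0.14 and -0.48.

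The receptors through which NK cells receive lymphoid cytokines mostly stood near equal levels. Of 16 tested, 2 fell past both thresholds, a share near the 11.8% of all genes. At an adjusted p under 0.05 alone, 5 were lower and 6 higher, beside 26.2% and 24.2% of all genes, and the median was 0.03 on the log2 scale. Il2rb, the shared chain of the IL-2 and IL-15 receptors, measured 2582 and 2579 CPM in wild-type cells against 3476 and 3518 CPM in TNFR2 KO cells, with a log2-fold change of 0.44 ± 0.018 (SE; edgeR's quasi-likelihood test, Benjamini-Hochberg adjusted p = 1.06e-09) that became -0.30 with scaling on NK cell genes. The common gamma chain Il2rg and the IL-18 receptor chain Il18rap had log2-fold changes of 0.44 and 0.42, and all 6 higher genes turned negative on that scale. The 2 that fell were Ifngr2, a chain of the interferon-γ receptor, from 25.1 and 24.1 to 3.59 and 3.65 CPM, and Il7r, from 7.04 and 6.83 to 2.30 and 2.81 CPM.

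**Figure D3:**
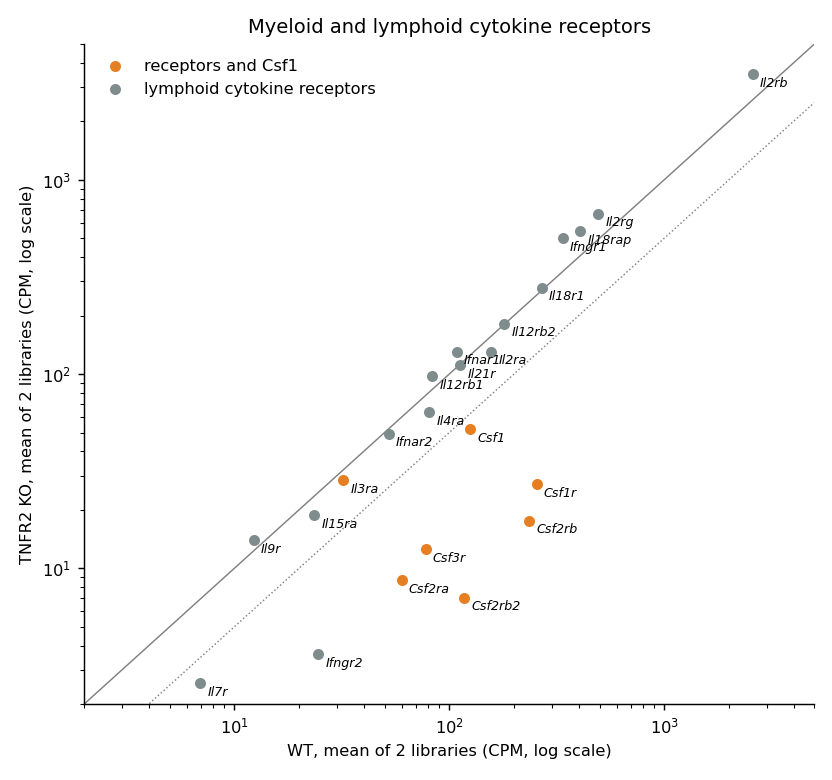
Mean expression in wild-type (horizontal axis) and TNFR2 KO (vertical axis) of 7 of the genes described (orange) and the 16 lymphoid cytokine receptors (grey), in CPM on log scales, each the mean of 2 libraries. The solid line marks equal levels and the dotted line a log2-fold change of -1. The lymphoid receptors lie near the solid line, apart from Ifngr2 and Il7r below the dotted line, whereas 6 orange points lie below the dotted line and Il3ra lies near the solid line.

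Receptors of other growth factors and of related cytokines were mixed. Of 13, 11 were tested and 6 fell past both thresholds, beside 11.8% of all genes, and the median was -1.26 on the log2 scale. Il6ra, the IL-6 receptor alpha chain of hepatocytes and myeloid cells, measured 32.3 and 32.1 CPM in wild-type cells against 4.44 and 4.99 CPM in TNFR2 KO cells, a log2-fold change of -2.78. Kit, the stem cell factor receptor of progenitors and mast cells, fell from 11.3 CPM in both libraries to 2.45 and 2.56 CPM, and Il13ra1 fell from 9.88 and 9.71 to 1.45 and 1.90 CPM. Il6st, the signalling chain of the IL-6 family, had a log2-fold change of -0.71. Crlf2, the TSLP receptor, had 0.53 and Il11ra1 0.43, both higher at an adjusted p under 0.05 and both negative with scaling on NK cell genes, at -0.21 and -0.31. The call for Pdgfrb, named after its values were seen, had an adjusted p of 0.0439 with edgeR's quasi-likelihood test and was lost with DESeq2, without a filter, with the replicate block and whichever of the 4 libraries was left out.

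**Figure D4:**
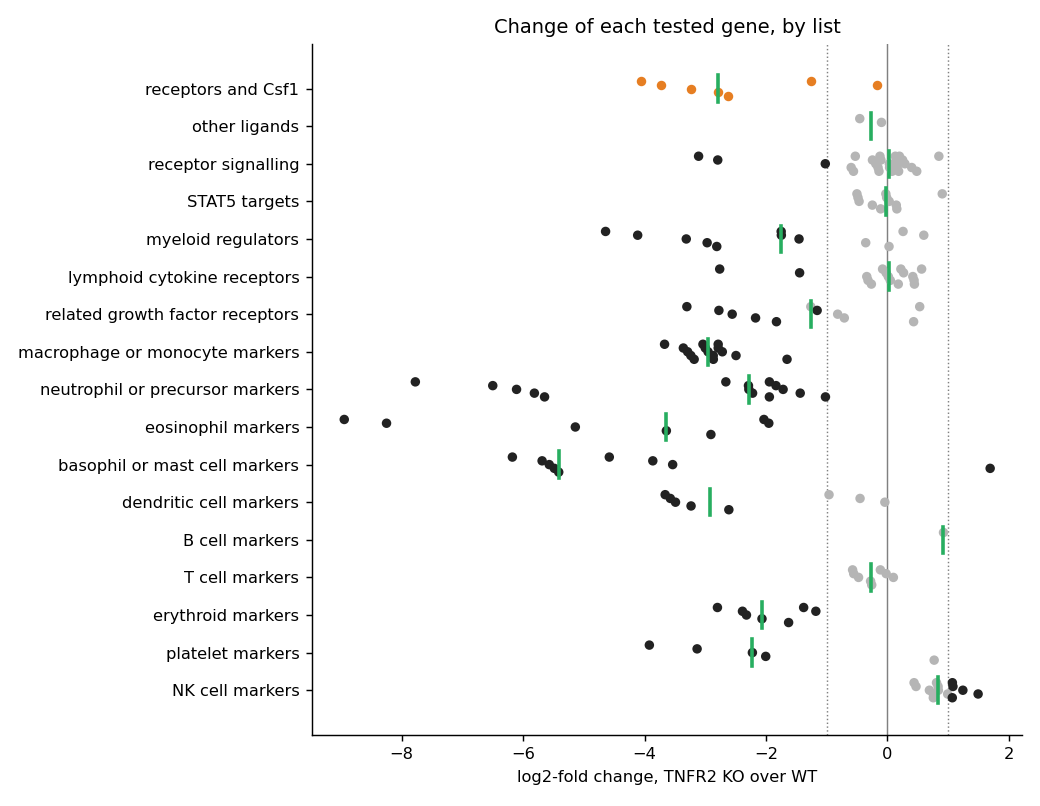
Log2-fold change (horizontal axis) for each tested gene, by list (vertical axis), where orange points are the genes described, black points passed both thresholds, grey points did not, green bars are list medians and dotted lines mark -1 and 1. The 7 orange points run from -4.05 to -0.18, the signalling and STAT5 target lists are centred at 0.03 and -0.03, and the myeloid marker lists lie to the left, with medians from -5.41 to -2.28.

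Markers of myeloid cells were mostly lower in TNFR2 KO libraries. Their lists, like all marker lists here, were written with earlier results of these libraries known and are not independent evidence of direction. In these lists lower and higher mean past both thresholds, as were 11.8% and 1.56% of all genes tested. All 15 macrophage or monocyte markers were lower past both thresholds, summing to 2182 and 2152 CPM in wild-type cells against 293 and 291 CPM in TNFR2 KO cells, or 13.5% of the wild-type level. Lyz2 and Mpeg1 were the most abundant of them, at 774 and 622 CPM on average in wild-type and 112 and 63.7 CPM in TNFR2 KO. All 15 neutrophil or precursor markers were lower, summing to 981 and 1002 CPM against 94.1 and 90.1 CPM, and were led by Mpo, a granule enzyme, which fell from 358 to 3.96 CPM on average, and S100a9, from 120.2 to 25.8 CPM.
Among markers of basophils and mast cells, which use the IL-3 receptor, 8 of 9 were lower and 1, Cma1, was higher, at 21.9 and 23.0 CPM against 71.9 and 73.2 CPM (log2-fold change 1.69). They summed to 1204 and 1201 CPM against 97.1 and 97.9 CPM, and the most abundant were the proteases Prss34, from 589 to 8.10 CPM on average, and Mcpt8, from 303 to 6.42 CPM. All 7 eosinophil markers were lower, at 50.7 and 49.4 CPM in sum against 4.55 and 4.87 CPM, led by Epx, from 15.6 to 0.0312 CPM, and Ccr3, from 11.7 to 3.02 CPM. Of the dendritic cell markers, 5 of the 8 tested were lower, and 4 of these 5 belong to the class II pathway that macrophages share (Cd74, H2-Aa, H2-Ab1 and Ciita). The list had sums of 1548 and 1583 CPM against 136 and 135 CPM, nearly all from those 4 genes, with Cd74 and H2-Ab1 at 916 and 308 CPM in wild-type cells against 76.8 and 27.4 CPM in TNFR2 KO cells. Of the remaining dendritic cell markers, named after their values were seen, Clec9a had a log2-fold change of -2.61, while Xcr1 at -0.96, Siglech at -0.45 and Zbtb46 at -0.04 did not pass the thresholds.
No marker of these lists was at 0 in all 4 libraries. Their part in the levels of the growth factor receptors was not tested.

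Markers of other blood cells varied. Of all genes tested, 11.8% were lower and 1.56% higher past both thresholds. At an adjusted p under 0.05 alone these shares were 26.2% and 24.2%. All 7 erythroid markers, led by Hba-a1 and Hbb-bs, were lower. They summed to 261 and 264 CPM in wild-type cells against 54.3 and 55.8 CPM in TNFR2 KO cells. Of 5 platelet markers 4 were lower, and the 5 summed to 39.2 and 36.3 CPM against 3.82 and 4.62 CPM. Most of the wild-type sum was Itga2b alone, at 34.1 and 31.8 CPM. The other marker, Gp1bb, was at 0.474 and 1.08 CPM against 0.904 and 1.78 CPM. Its log2-fold change of 0.77 was not past both thresholds. The 8 T cell markers, led by Cd4 and Cd3g, summed to 957 and 955 CPM against 783 and 789 CPM, and their median log2-fold change was -0.27. Of these 8, 6 were lower and 1 higher at an adjusted p under 0.05, and none was past both thresholds. Of 5 B cell markers only Cd22 was tested, with a log2-fold change of 0.91. All 14 NK cell markers were higher at an adjusted p under 0.05 and 5 were past both thresholds, led in abundance by the granzymes Gzma, with a log2-fold change of 1.08, and Gzmb, with 0.75, on the scale set by all genes.

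With the scale set by NK cell genes, the median of all genes tested moved, in log2-fold change, from -0.003 to -0.74, and each of the 7 genes past the filter moved with it. Il3ra was then at -0.92, Csf1r at -3.98 and Csf2rb2 at -4.79. Relative to the median of all genes the values were -0.18 for Il3ra, -3.23 for Csf1r and -4.05 for Csf2rb2. A change of scale moves all genes by nearly the same amount, so the order of the 7 genes could hardly change. The distance of Il3ra from 0 depended on the scale.

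The genes nearest in pattern to each receptor were sought among the 8755 other genes that averaged 10 CPM or more, by the root mean square (RMS) difference in log2(CPM + 0.5), centred on each gene's mean over the 4 libraries. Nearest to Csf1r were Asph (RMS 0.018), Gm11127 (0.021) and Pirb (0.030), the last an inhibitory receptor of myeloid cells. Nearest to Csf2ra were Plbd1 (0.042), the complement gene C1qb (0.056) and the macrophage scavenger receptor Cd163 (0.059). The class II gene H2-Aa (0.038), the chemokine gene Ccl6 (0.055) and the complement gene Cfb (0.060) were nearest to Csf2rb.
For Csf2rb2 they were Cd63 (0.062), Cebpa (0.068) and Cfb (0.079), and for Csf3r they were Il18bp (0.013), Ifngr2 (0.025) and Pygl (0.037). Csf1 was nearest to the ferritin gene Fth1 (0.014), the cathepsin gene Ctsc (0.014) and Emb (0.017). Il3ra was nearest to Bhlhb9 (0.004), Gnl2 (0.005) and Tapbp (0.006), which like it differed little between genotypes. With 4 libraries in 2 groups such likeness rests mostly on the size of 1 difference. The 0.5 added to each CPM shrinks that difference for genes of low level. Asph was thus nearest to Csf1r with a log2-fold change of -3.52, against -3.24 for Csf1r.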

How the data were processed

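RNA was sequenced from Ly49H+ NK cells sorted by CD45 allele, with 2 libraries per genotype. Reads were paired-end (100 bp), from poly-A selected, stranded libraries. The authors trimmed them with Trimmomatic (version 1.4 in the submitters' processing notes), assigned them to mm10 transcripts with kallisto 0.46.1 and added them up for each gene with Tximport. The values they deposited are expected counts (estimated counts) per gene symbol, with no scaling between libraries. Whether the assignment used strand, and which transcript annotation it used, are not given in the sources used here. Reads shared by near-identical genes are divided by estimation, which bears on Csf2rb and Csf2rb2.

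The row without a gene name held 0.0559% to 0.0728% of counts and was left out. Expected counts were rounded, scaled with TMM factors, filtered with filterByExpr and tested over all 13822 remaining genes with edgeR 4.0.16 (R 4.3.3), using the quasi-likelihood test with a term for genotype alone and Benjamini-Hochberg adjusted p-values. A gene counted as called where its adjusted p was under 0.05 and its log2-fold change lay beyond -1 or 1. CPM are TMM-scaled. The steps were tested on simulated data with as many genes raised as lowered. Such data cannot show how the scaling handles changes that are mostly downwards. Totals ran from 32713256 to 39543650 counts, which leaves genes under about 1 CPM with few counts. Duplicates differed by more than sampling noise, since chi-square averaged 3.29 per gene in wild-type and 3.56 in TNFR2 KO, where noise gives 1.

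The labels state, in each sample's description, that same-numbered libraries of both genotypes came from the same pooled spleens, so the numbers pair the samples. Across genes, same-numbered libraries deviated from their group means with a correlation of 0.0487.

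The 8 genes and all lists were chosen with earlier results of these data known. Named genes are the 8; Tnfrsf1b; the 5 other ligands; from each of the 6 lists of related genes up to 4 called genes with the largest change and up to 3 others with the highest CPM; the 3 genes nearest in pattern to each receptor with a mean of at least 10 CPM; and the 2 most abundant of each marker list. A few genes that this rule selects are not reported here. Hmgxb3, Klra8, Cish, Socs1, Pim2, Pdgfrb, Cma1, Ciita, Clec9a, Xcr1, Siglech and Zbtb46 were added after their values were seen. The lists were other ligands, receptor signalling, STAT5 targets, myeloid regulators, lymphoid cytokine receptors, related growth factor receptors and markers of 10 cell types. Positions, exon lengths and shared 31-base stretches come from GENCODE M21 (GRCm38), which stands in for the authors' annotation, and promoters from RefSeq. Alternatives were DESeq2 1.42.0, 4 other scalings, other filters, the replicate block and leaving out each library.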

Additional observations from a re-analysis of the deposited data

How the results depend on the processing

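The log2-fold changes of the 7 genes past the filter were recomputed under 12 alternatives, and all 84 values kept their sign. The genes were chosen for this sign in the same libraries, so its being kept carries little weight. Of the 84 values, 21 moved by more than the spread between duplicates, as Il3ra did from -0.18 to -0.92 with scaling on NK cell genes. Over all genes, 1842 were past both thresholds. With the replicate block, which pairs same-numbered libraries, the count was 1830 and no list count moved by over 1.5 times. Leaving out each library in turn gave 1650 to 1867 genes. Scaling on NK cell genes gave 3563 genes (3526 lower and 37 higher, against 1627 and 215), since it moves all genes downwards. On that scale 1 other ligand (Csf2), 6 receptor signalling genes, 3 STAT5 targets and 5 lymphoid cytokine receptors were past both thresholds, against 0, 3, 0 and 2. A filter at a mean of 10 CPM tested fewer genes and called 480, among them 5 myeloid regulators, 1 lymphoid cytokine receptor and 1 related growth factor receptor, against 8, 2 and 6. With DESeq2 the total was 1603 and the counts of the 6 lists of related genes were the same except for Pdgfrb, which was lost, and the marker lists were not recomputed. Without the first TNFR2 KO library Flt3 was called in addition. Depth limits Il5ra, Il3, Il34 and Csf3, which rest on a few counts or none, and the design of 2 libraries per genotype limits every estimate of spread.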
